A study of Mus musculus with 4 samples.

Results

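The removal of introns from pre-mRNA involves the SR proteins, the heterogeneous nuclear ribonucleoproteins (hnRNPs) and the proteins of the small nuclear ribonucleoproteins (snRNPs). The probe sets described here measure mRNAs of these proteins and of some Lsm proteins with other roles. They were picked by gene symbol, as every probe set with a single symbol that begins with Srsf, Hnrnp, Snrp, Sf3a, Sf3b, Lsm or Prpf. Srsf, Lsm and Prpf had to be followed by a digit. This name rule and the gene lists used below were set with earlier results of these data known. The rule gave 64 of the 12393 genes measured, read by 148 of the 22690 probe sets on the array. Another 15 probe sets, annotated to such a gene together with other genes, were left out.

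Whole lungs of mouse embryos were compared on 4 arrays, 2 from Sftpc-Nmyc embryos and 2 from wild-type embryos, all titled as embryonic day 18. The transgene fuses mouse Nmyc1 (now Mycn, a growth-promoting transcription factor of the MYC family) to EGFP behind 3.7 kb of the human SFTPC promoter and enhancer, which is active in lung epithelium, so expression is aimed at the epithelium and not at the other cells of the lung. The design text describes 4 transgenic embryos, made by injection into fertilized F2 eggs of C57BL/6J and DBA/2J and collected at E18.5, and calls the duplicates biological replicates. It gives neither the strain nor the exact stage of the wild-type embryos. Mycn probe set 1425922_a_at read 455.2 and 356 in Sftpc-Nmyc lungs, against 34.7 and 32.1 in wild-type lungs, in keeping with their labels. Its other probe sets did not follow: 1425923_at read 61.8 and 43.8 in Sftpc-Nmyc lungs, against 57.3 and 18.8 in wild-type lungs, and 1417155_at read 25.1 and 27.2 in Sftpc-Nmyc lungs, against 78.7 and 63.5 in wild-type lungs. Which part of the transcript each reads was not determined.

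Splicing is carried out by the spliceosome. Each of its main snRNPs is built on a short RNA held in a ring of Sm proteins, or of Lsm proteins in the case of U6. The U1 snRNP reads the 5′ splice site, the U2 snRNP with the SF3a and SF3b complexes reads the branch point, and the tri-snRNP of U4, U5 and U6 brings in the catalytic parts. SR proteins bind exons and mostly promote their use, and hnRNPs coat nascent RNA and often oppose it. MYC proteins are known to raise several of these genes in tumours, among them Srsf1 and Hnrnpa1.

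Splicing probe sets were higher in Sftpc-Nmyc lungs far more often than lower. Of 148, 135 were bright enough to be tested, and 58 were called higher (43.0%) and 1 lower (0.741%) by limma at an adjusted p under 0.05. Over all 14266 probe sets tested, 26.4% were called, 13.5% higher and 12.9% lower. The median log2 fold change, Sftpc-Nmyc minus wild type, was 0.46 over the 135 and -0.01 over all, on a log2(signal + 5) scale that understates changes of dim genes. Most rises were moderate: 13 of the 135 were called higher by 2-fold or more (9.63%, against 5.99% of all probe sets tested). By gene these were 4 of 62 (6.45%), near the 5.53% of all genes tested. Among the members tested, 122 had a positive fold change, against 7010 of all 14266 probe sets tested. In 101 members (74.8%) both Sftpc-Nmyc arrays lay above both wild-type arrays, against 31.4% of all probe sets tested. Groups did not overlap in 105 members (77.8%, against 66.3% of all). The only call in the other direction was 1 probe set of Hnrnpab. At an unadjusted p under 0.05, 75 members were higher and 2 lower, the second being Prpf4b 1451909_a_at at -0.44. Over all 14266 probe sets tested, 2816 were higher and 2754 lower at that threshold.

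Counted by gene, with the brightest probe set standing for each, 29 of 62 genes tested were higher (46.8%, against 14.7% of 8675 genes). By limma's adjusted p 0 were lower, against 15.7% of all genes. At an unadjusted p under 0.05 there were 38 higher and 0 lower, against 1786 and 1878 of the 8675 genes. The number of arrays limits these counts, with only 2 biological replicates a group. The p-values and SE rest on variances that limma draws partly from a trend over all features fitted. They are therefore not a direct measure of the spread between those replicates. Without wild type replicate 2 the member probe sets called fell to 31, without Sftpc-Nmyc replicate 2 to 39, and the genes called without wild type replicate 2 to 15. All 59 called members kept their sign whichever array was left out. Their groups did not overlap in deposited signal, so leaving out an array could hardly reverse a sign. The kept signs are therefore no measure of stability. Only some of the 59 stayed called in every fit that left out an array.

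**Figure D1:**
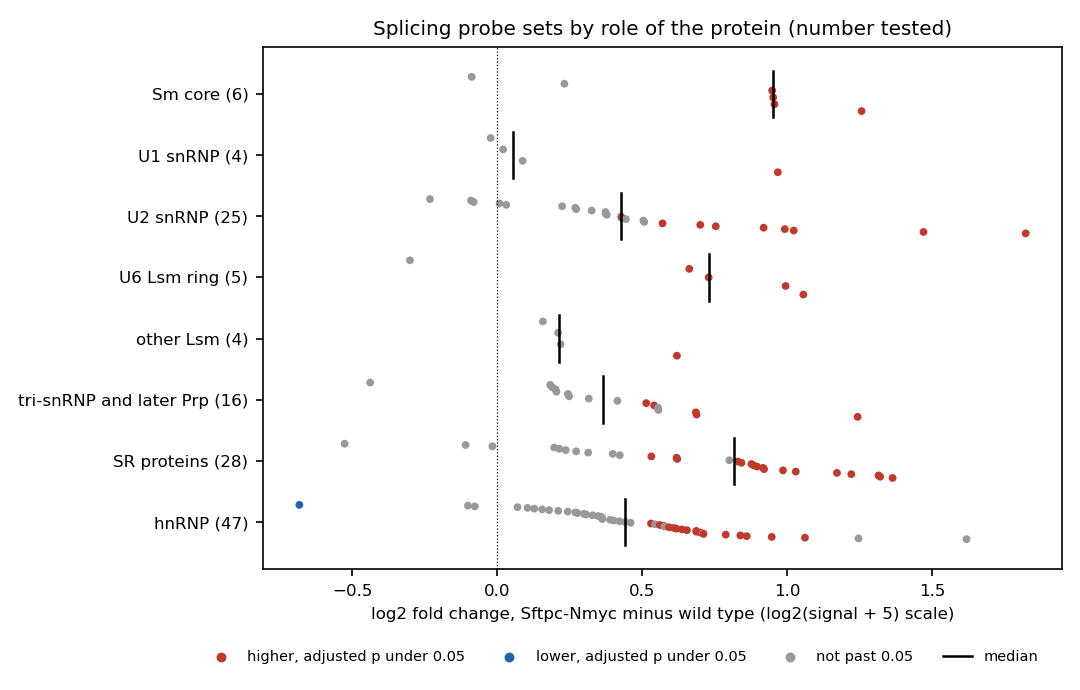
Log2 fold change (Sftpc-Nmyc minus wild type) of each of the 135 tested probe sets, by the role of the protein. Red and blue points passed an adjusted p of 0.05, grey points did not, and the black bar is the median over probe sets (n = 2 arrays per group). It is highest for the Sm core at 0.95 and the SR proteins at 0.82. Counted by gene, the median was 0.95 for the Sm core, 0.73 for the U6 Lsm ring and 0.53 for the SR proteins.

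Other cells and cycles moved with the genotype, and in whole lung fewer cells of a type and less RNA per cell cannot be told apart. For scale, 14.7% of all 8675 genes tested were called higher and 15.7% lower. All 16 tested genes of an S phase list were higher, with a summed deposited signal of 8346.9 to 9462.8 in Sftpc-Nmyc lungs, against 2321.5 to 3214.8 in wild-type lungs. Endothelial markers were lower in 8 of 8 (summed signal 2369.1 to 2438.2 in Sftpc-Nmyc lungs, 6143.2 to 7105.1 in wild-type lungs), and mesenchymal markers in 7 of 8 (12182 to 12717.4 in Sftpc-Nmyc lungs, 20236.3 to 21796.3 in wild-type lungs). Of 11 markers of lung epithelium, 2 were higher and 8 lower (15846.9 to 21317.9 in Sftpc-Nmyc lungs, 36438.3 to 39830.8 in wild-type lungs). Sftpc, the surfactant gene that defines the tissue, was bright on every array but was among the 8 lower. It read 5788.1 and 4817.4 in Sftpc-Nmyc lungs, against 9566.4 and 9545.8 in wild-type lungs. Macrophage markers were lower in 2 of 6 (711.6 to 730.2 in Sftpc-Nmyc lungs, 1359.7 to 1388.7 in wild-type lungs), cardiac markers in 5 of 5 tested (292.7 to 548.7 in Sftpc-Nmyc lungs, 1696.8 to 2725.7 in wild-type lungs) and erythroid markers in 2 of 2 tested (422 to 428 in Sftpc-Nmyc lungs, 2153.8 to 2321.1 in wild-type lungs). The S phase, cardiac and erythroid lists each had 1 gene that stayed under 73.4, the highest signal of 27 Bacillus control probe sets, on all arrays. Xist read 59.3 and 63.9 in Sftpc-Nmyc lungs, against 1707.8 and 1506.1 in wild-type lungs, and the Y-linked Eif2s3y read 58 and 61.7 in Sftpc-Nmyc lungs, against 3.1 and 0.8 in wild-type lungs, so sex and genotype cannot be told apart. The part of any of these in the splicing genes was not tested.

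The upstream DNA of the genes was read from RefSeq promoters of build GRCm38.p6, which hold 56 of the 64 genes, over the 250 bases before each annotated start. These sequences show the E-box CACGTG, which MYC-MAX dimers bind, and the related CACGCG (searched on both strands, so also as CGCGTG; no overlap between the motifs was removed). CACGTG was present at some start of 5 of the 56 genes (8.93%), against 10.2% of 7027 genes tested on the arrays. CACGCG was present in 15 (26.8%), against 16.9%, at a median GC content of 60.4% over the members' starts and 60.0% over those of the genes tested. Among the 29 of these genes with a probe set called higher, 3 held CACGTG and 9 held CACGCG. Of the other 27, 2 held CACGTG and 6 held CACGCG. A match is a description of the letters and says nothing of binding in these lungs. The examples, all from genes with a single annotated start and a probe set called higher, are printed 5′ to 3′ along the gene's strand with the matches in capitals: Hnrnpd at chr5:99978939-99979188 (minus strand), Prpf39 at chr12:65036084-65036333 (plus strand), Srsf3 at chr17:29032410-29032659 (plus strand) and Sf3a3 at chr4:124714611-124714860 (plus strand), each ending at the base before the start.
Hnrnpd: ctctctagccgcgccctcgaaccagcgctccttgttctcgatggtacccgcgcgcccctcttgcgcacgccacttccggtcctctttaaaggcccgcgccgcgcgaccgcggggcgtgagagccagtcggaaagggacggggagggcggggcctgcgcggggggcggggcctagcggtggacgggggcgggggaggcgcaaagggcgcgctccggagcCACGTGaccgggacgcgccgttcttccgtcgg
Prpf39: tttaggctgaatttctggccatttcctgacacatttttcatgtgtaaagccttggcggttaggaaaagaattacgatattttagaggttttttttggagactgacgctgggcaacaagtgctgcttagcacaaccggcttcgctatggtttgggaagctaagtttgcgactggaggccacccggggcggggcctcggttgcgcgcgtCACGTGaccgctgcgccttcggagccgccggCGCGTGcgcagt
Srsf3: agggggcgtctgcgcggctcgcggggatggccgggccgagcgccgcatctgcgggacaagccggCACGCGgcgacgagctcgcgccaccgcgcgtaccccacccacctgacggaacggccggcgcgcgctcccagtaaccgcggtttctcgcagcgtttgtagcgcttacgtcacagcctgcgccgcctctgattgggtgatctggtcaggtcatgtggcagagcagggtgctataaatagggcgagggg
Sf3a3: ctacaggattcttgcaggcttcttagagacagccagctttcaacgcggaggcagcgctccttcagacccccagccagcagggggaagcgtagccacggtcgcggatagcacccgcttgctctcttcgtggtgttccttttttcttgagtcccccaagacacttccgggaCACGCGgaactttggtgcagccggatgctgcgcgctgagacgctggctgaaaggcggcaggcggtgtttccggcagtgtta

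The Sm ring, the core shared by the spliceosomal snRNPs, was called higher in 3 of its 4 tested genes and 4 of 6 probe sets. Over all features tested, 14.7% of genes and 13.5% of probe sets were called higher. The ring had a median log2 fold change of 0.95. Its genes Snrpd1, Snrpd2 and Snrpf had no probe set that met the rule. Snrpb, which encodes SmB, read 1219.6 and 1399.8 in Sftpc-Nmyc lungs, against 644.1 and 675.1 in wild-type lungs, a log2 fold change of 0.95 ± 0.13 (limma SE, n = 2 per group; adjusted p = 0.0026). Snrpe, for SmE, read 1360.7 and 1521.5 in Sftpc-Nmyc lungs, against 712.5 and 755.2 in wild-type lungs, also 0.95 ± 0.13 (limma adjusted p = 0.0023). In both genes the groups lay far apart next to the gap between replicates. Snrpg, for SmG, was read by a pair of probe sets that moved together: 1448358_s_at gave 1620 and 1537.2 in Sftpc-Nmyc lungs, against 826.8 and 777.5 in wild-type lungs (0.96), and 1448357_at gave 1139.2 and 1078.2 in Sftpc-Nmyc lungs, against 488.4 and 411.1 in wild-type lungs (1.26 ± 0.14, limma adjusted p = 0.0012). All 4 of these calls held whichever array was left out. Snrpd3, for SmD3, stood apart, at 381.3 and 406.7 in Sftpc-Nmyc lungs, against 390.2 and 285.5 in wild-type lungs, which overlap (0.23, limma adjusted p = 0.38). Its second tested probe set, 1449629_s_at, stood at -0.09. Snrpn, the imprinted SmN gene best known from brain, had 1 probe set that met the rule. That probe set was too dim to test, at 12 and 7.1 in Sftpc-Nmyc lungs, against 6.1 and 4.9 in wild-type lungs.

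**Figure D2:**
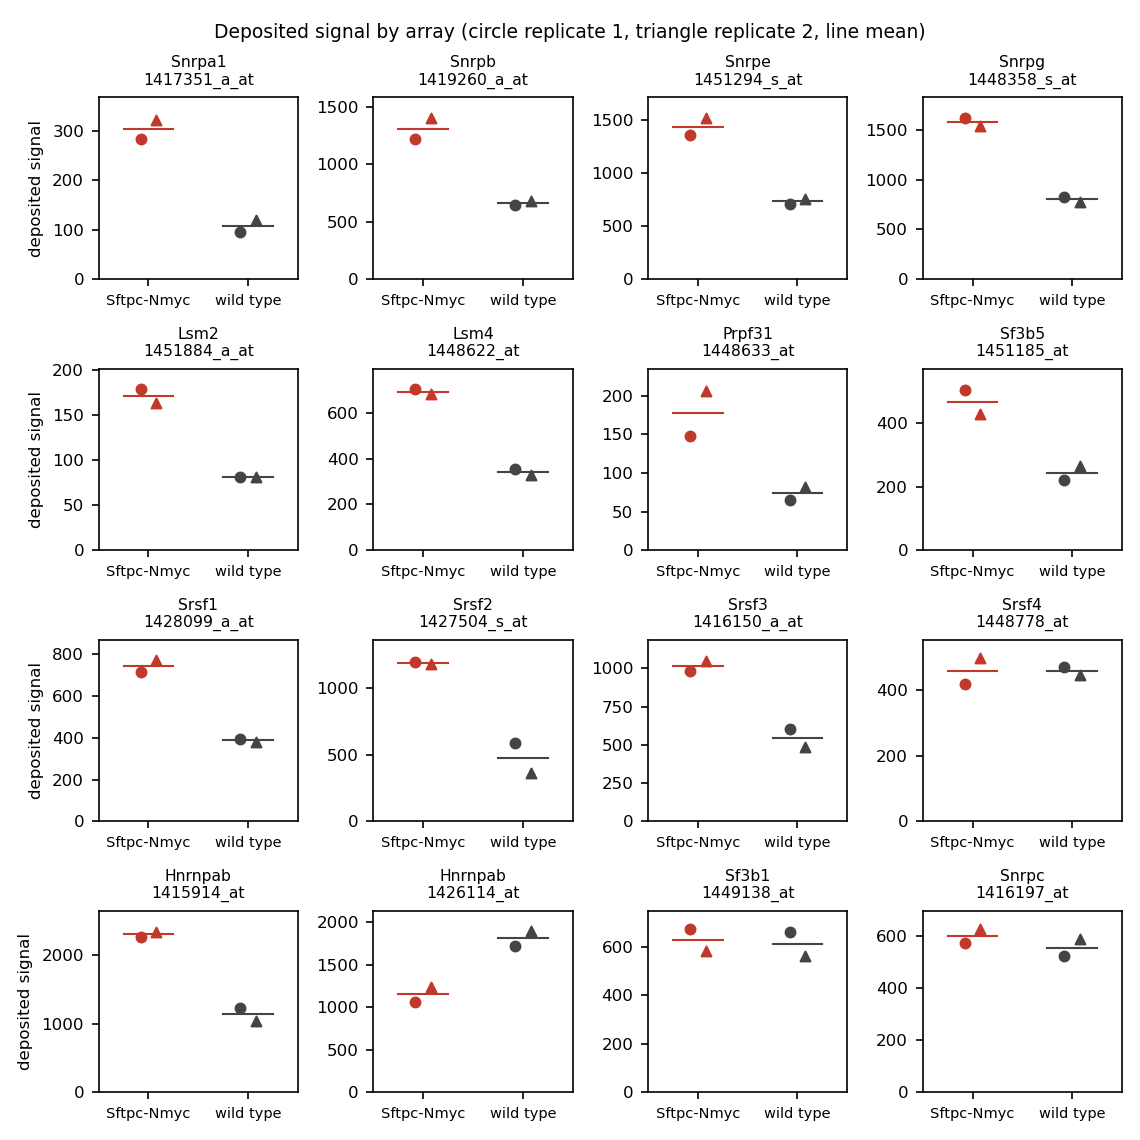
Deposited signal (linear scale, from 0) of 16 probe sets on each array, Sftpc-Nmyc left and wild type right. Circles are replicate 1, triangles replicate 2 and lines group means. Signals of Snrpb, Snrpe, Snrpg and Snrpa1 do not overlap between groups, those of Srsf4, Sf3b1 and Snrpc do, and Hnrnpab appears with probe sets that went opposite ways.

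The Lsm ring of U6 was called higher in 4 of 5 genes tested, each with 1 probe set (80%, against 14.7% of all genes tested). Its genes Lsm5 and Lsm6 had no probe set that met the rule. Lsm4 read 704 and 681.7 in Sftpc-Nmyc lungs, against 354.3 and 329.9 in wild-type lungs, which is 1.99-fold (limma adjusted p = 0.0023). Lsm2 read 178.3 and 163 in Sftpc-Nmyc lungs, against 81 and 80.8 in wild-type lungs (1.06 ± 0.17, limma adjusted p = 0.0047). Lsm3 (0.73 ± 0.13) and Lsm8 (0.66 ± 0.17), the subunit that sets the nuclear ring apart from the cytoplasmic one, also rose. Lsm8 lost its call without Sftpc-Nmyc replicate 2 (limma adjusted p = 0.12) or wild type replicate 2 (0.13). Lsm7 was the exception: 156.8 and 208.3 in Sftpc-Nmyc lungs, against 333.9 and 149.2 in wild-type lungs. There the wild-type arrays differed from each other by 1.14 on the normalized log2 scale, and the gene was not called (-0.30 ± 0.34, limma adjusted p = 0.56).

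Of the Lsm genes outside that ring, 1 of 4 tested was called higher (25%, against 14.7% of all genes tested), a list too short to set against that share. Lsm1, which replaces Lsm8 in the cytoplasmic ring that promotes mRNA decay, read 97.9 and 102.9 in Sftpc-Nmyc lungs, against 67 and 64.6 in wild-type lungs (0.62 ± 0.19, limma adjusted p = 0.049). Both wild-type readings lie under the Bacillus maximum of 73.4, and the call was lost whichever array was left out (limma adjusted p = 0.11 to 0.18). Lsm10, of the U7 snRNP that trims histone mRNAs, stood at 0.16, Lsm12 at 0.22 and Lsm14b at 0.21, none of them called. The single probe set of Lsm14a that met the rule was too dim to test.

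In the U2 snRNP 9 of 25 probe sets (36%, against 13.5% of all tested) and 4 of 11 genes (36.4%, against 14.7%) were called higher. Snrpa1, the A′ protein of U2, was called higher by all 3 of its probe sets. The brightest, 1417351_a_at, read 283.2 and 322.7 in Sftpc-Nmyc lungs, against 95.4 and 119.6 in wild-type lungs (1.47 ± 0.18, limma adjusted p = 0.0018). Probe set 1417353_x_at read 193.3 and 131.3 in Sftpc-Nmyc lungs, against 40.8 and 45.3 in wild-type lungs (limma adjusted p = 0.0023). Both of those wild-type readings lie under 73.4, the Bacillus maximum, so the size of that difference, fitted at 1.82, is uncertain. The third, 1417352_s_at, stood at 1.02 and lost its call without Sftpc-Nmyc replicate 2 (limma adjusted p = 0.054) or wild type replicate 2 (0.057). Snrpb2, the B″ protein that binds the same stem of U2 RNA together with A′, was not called by either tested probe set (0.22 and 0.44). Among the SF3 subunits, Sf3b5 read 504.6 and 427.1 in Sftpc-Nmyc lungs, against 221.8 and 265.3 in wild-type lungs (0.92 ± 0.16, limma adjusted p = 0.0063). With the mean of all probe sets of the gene, which brings in one of at most 16 on any array, Sf3b5 was not called (0.57, limma adjusted p = 0.17). Sf3a3 was called by both of its probe sets (0.75 and 0.99) and Sf3b2 by 2 of 4 (0.57 and 0.70), but each of these calls was lost without Sftpc-Nmyc replicate 2 and without at least 1 of the wild-type arrays (limma adjusted p = 0.062 to 0.12). Sf3a2, named after its values were seen, was called by its brightest probe set (0.43, lost whichever array was left out at limma adjusted p = 0.089 to 0.14).

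Other SF3 subunits gave no call. Sf3b1, the large subunit that clamps the branch point, read 673.5 and 579.7 in Sftpc-Nmyc lungs, against 660.6 and 561 in wild-type lungs, and its 3 probe sets stood between 0.01 and 0.37. Sf3b4 stood at -0.08 and -0.09 in its probe sets. Sf3b3 read 484.2 and 440.1 in Sftpc-Nmyc lungs, against 421.7 and 273.3 in wild-type lungs (0.43 ± 0.21, limma adjusted p = 0.17), and it passed without wild type replicate 1 (0.74, limma adjusted p = 0.044). Sf3b6, named after its values were seen, was not called by any of 3 probe sets, which ran from -0.23 to 0.50. The differences between subunits were not tested.

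U1 proteins had the lowest median log2 fold change of the 8 roles, 0.05, with 1 of 4 probe sets called higher. That is 25%, against 13.5% of all probe sets tested, in a list too short to set against that share. The 4 probe sets read only 3 genes, Snrpa had no probe set that met the rule, and the difference from other roles was not tested. Snrpc, the C protein of U1, which contacts the 5′ splice site, read 575.9 and 629.7 in Sftpc-Nmyc lungs, against 524.2 and 589.9 in wild-type lungs, which overlap (0.09 ± 0.14, limma adjusted p = 0.68). Prpf40b, known from yeast Prp40 as a U1-associated protein, stood at 0.02. Prpf39, also U1-associated in yeast, was called by 1428171_at, at 79.2 and 74.3 in Sftpc-Nmyc lungs, against 49.9 and 30.1 in wild-type lungs (0.97 ± 0.28, limma adjusted p = 0.037), and not by 1452688_at (-0.02). The Sftpc-Nmyc readings lie just above 73.4, the Bacillus maximum, and the wild-type readings under it. The call was lost with the mean of all probe sets of the gene (0.55, limma adjusted p = 0.20) and without either Sftpc-Nmyc array or wild type replicate 2 (limma adjusted p = 0.12 to 0.14).

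Of the tri-snRNP and later-acting Prp proteins, 4 of 8 genes were called higher (50%, against 14.7% of all genes tested). Prpf31, which bridges the U4/U6 and U5 parts of the tri-snRNP, read 147.7 and 206.7 in Sftpc-Nmyc lungs, against 65.2 and 81.7 in wild-type lungs (1.24 ± 0.23, limma adjusted p = 0.0071), and stayed called without any 1 array, although wild type replicate 1 read under the Bacillus maximum. Prpf8, the scaffold of the catalytic centre, read 811.9 and 818 in Sftpc-Nmyc lungs, against 566 and 527.3 in wild-type lungs (0.54 ± 0.13, limma adjusted p = 0.018). Prpf38a, a factor of spliceosome activation, stood at 0.69 ± 0.16 (limma adjusted p = 0.021). Prpf19, the ubiquitin ligase that names the Prp19 complex, was called by 2 of 3 probe sets, at 0.69 and 0.51. The calls of Prpf8 and Prpf38a were lost whichever array was left out (limma adjusted p = 0.054 to 0.098), and so was that of Prpf19 1419839_x_at (0.062 to 0.12), while Prpf19 1449635_at lost its call only without wild type replicate 1 (0.056). Prpf3 (0.56), Prpf6 (0.19 and 0.41) and Prpf38b (0.24 and 0.25) were not called, and the 5 tested probe sets of Prpf4b, a kinase of the tri-snRNP, ran from -0.44 to 0.55 with none called.

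SR proteins had 17 of 28 probe sets (60.7%, against 13.5% of all tested) and 5 of 9 genes (55.6%, against 14.7%) called higher. Of the probe sets, 6 were called at 2-fold or more, against 5.99% of all tested. Srsf1, the founding member of the family, was called by 5 of 6 probe sets, from 0.62 to 1.36. Its brightest, 1428099_a_at, read 714.1 and 771.4 in Sftpc-Nmyc lungs, against 393 and 381.5 in wild-type lungs (0.92 ± 0.13, limma adjusted p = 0.0031). Srsf2 was called by 3 of 4, the brightest being 1427504_s_at at 1194.5 and 1181.2 in Sftpc-Nmyc lungs, against 589.7 and 359.6 in wild-type lungs (1.32 ± 0.23, limma adjusted p = 0.0055). Its wild-type arrays differ, but both lie well below the Sftpc-Nmyc arrays. Srsf3, the smallest SR protein, was called by 5 of 6. Its brightest, 1416150_a_at, read 984.2 and 1050.5 in Sftpc-Nmyc lungs, against 601.5 and 482.8 in wild-type lungs (0.88 ± 0.15, limma adjusted p = 0.0058). All 3 of these probe sets stayed called whichever array was left out, as did 3 of the 5 for Srsf1, 2 of the 3 for Srsf2 and 3 of the 5 for Srsf3.

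The same family held genes with little measured change. Srsf4 read 417.2 and 499.5 in Sftpc-Nmyc lungs, against 470.2 and 445.2 in wild-type lungs (-0.02 ± 0.15, limma adjusted p = 0.95). Srsf9 stood at 0.24 ± 0.13 and was not called. Srsf5 stood at 0.31 ± 0.13 (limma adjusted p = 0.12) and passed only without Sftpc-Nmyc replicate 1 (0.45, limma adjusted p = 0.049). Srsf10, a repressor of splicing when dephosphorylated, was called by 1 of 4 probe sets, 1418527_a_at, at 154.9 and 167.4 in Sftpc-Nmyc lungs, against 83.8 and 87.4 in wild-type lungs (0.90 ± 0.17, limma adjusted p = 0.0087), and lost that call without Sftpc-Nmyc replicate 2 (0.051) and with the mean of all its probe sets (0.48, limma adjusted p = 0.14). Whether Srsf1, Srsf2 and Srsf3 differ from the uncalled members was not tested. Of the rest, named after their values were seen, Srsf6 was called by 2 of 3 probe sets and Srsf11 by 1 of 2, none of which stayed called in all 4 fits that leave out an array.

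Of the hnRNPs, 17 of 47 probe sets (36.2%, against 13.5% of all tested) and 7 of 18 genes (38.9%, against 14.7%) were called higher. Only 1 of the 17 reached 2-fold, a level called in 5.99% of all probe sets tested. Hnrnpf, which binds runs of G, was called by 3 of 4 probe sets. The one with the largest change, 1423382_a_at, read 949.2 and 1068.7 in Sftpc-Nmyc lungs, against 511.2 and 430.8 in wild-type lungs (1.06 ± 0.15, limma adjusted p = 0.0026), and held without any 1 array, while the brightest, 1456664_x_at, stood at 0.36 and was not called. Hnrnpr was called by 1 of 3, at 392.8 and 340.3 in Sftpc-Nmyc lungs, against 208.5 and 193.5 in wild-type lungs (0.84 ± 0.15, limma adjusted p = 0.0070). Hnrnpu, a large RNA- and chromatin-binding scaffold, was called by 2 of 5: 1450849_at read 834.4 and 766.2 in Sftpc-Nmyc lungs, against 497.6 and 476.4 in wild-type lungs (0.69 ± 0.13, limma adjusted p = 0.0076), a call lost without wild type replicate 2 (0.054). Hnrnpul1 (-0.08), Hnrnpul2 (0.07 and -0.10) and Hnrnph3 (0.28) were not called. Named after their values were seen, Hnrnpa1 and Hnrnpk were not called by any of their 3 and 4 probe sets, which ran from 0.33 to 0.42 and from 0.13 to 0.36. Their brightest probe sets depended on the array left out. Hnrnpa1 1455305_x_at stood at 0.64 without Sftpc-Nmyc replicate 2 and 0.21 without Sftpc-Nmyc replicate 1. Hnrnpk 1448176_a_at stood at 0.69 and 0.04 in the same fits.

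Hnrnpab was the one gene whose probe sets were called in opposite directions. Probe set 1415914_at read 2264.2 and 2344.5 in Sftpc-Nmyc lungs, against 1237.8 and 1042.8 in wild-type lungs (0.95 ± 0.13, limma adjusted p = 0.0025). Probe set 1453849_s_at moved the same way (0.86 ± 0.13), as did 1455855_x_at (0.64 ± 0.16), though that last call was lost without Sftpc-Nmyc replicate 1 or either wild-type array (limma adjusted p = 0.069 to 0.11). Probe set 1426114_at went down, at 1058.2 and 1240.2 in Sftpc-Nmyc lungs, against 1718.2 and 1895.2 in wild-type lungs (-0.68 ± 0.13, limma adjusted p = 0.0089, and -0.61 at 0.068 without wild type replicate 2). Both sets of readings are bright and neither overlaps between groups. The gene is known to make isoforms with and without an internal exon, but which transcript each probe set reads was not determined here.

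Opposite signs without opposite calls were seen in other genes with many probe sets. Of 34 genes with at least 2 tested probe sets, 3 (Snrpa1, Snrpg and Sf3a3, named after their values were seen) had all of them called, 18 some and 13 none. Srsf2 1427816_at read 50.5 and 102.4 in Sftpc-Nmyc lungs, against 170.1 and 71.4 in wild-type lungs, which overlap (-0.53 ± 0.42). Srsf3 1438215_at read 83.9 and 84.4 in Sftpc-Nmyc lungs, against 99.5 and 87.9 in wild-type lungs (-0.11 ± 0.19). Neither was called, at limma adjusted p = 0.40 for Srsf2 and 0.71 for Srsf3.

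**Figure D3:**
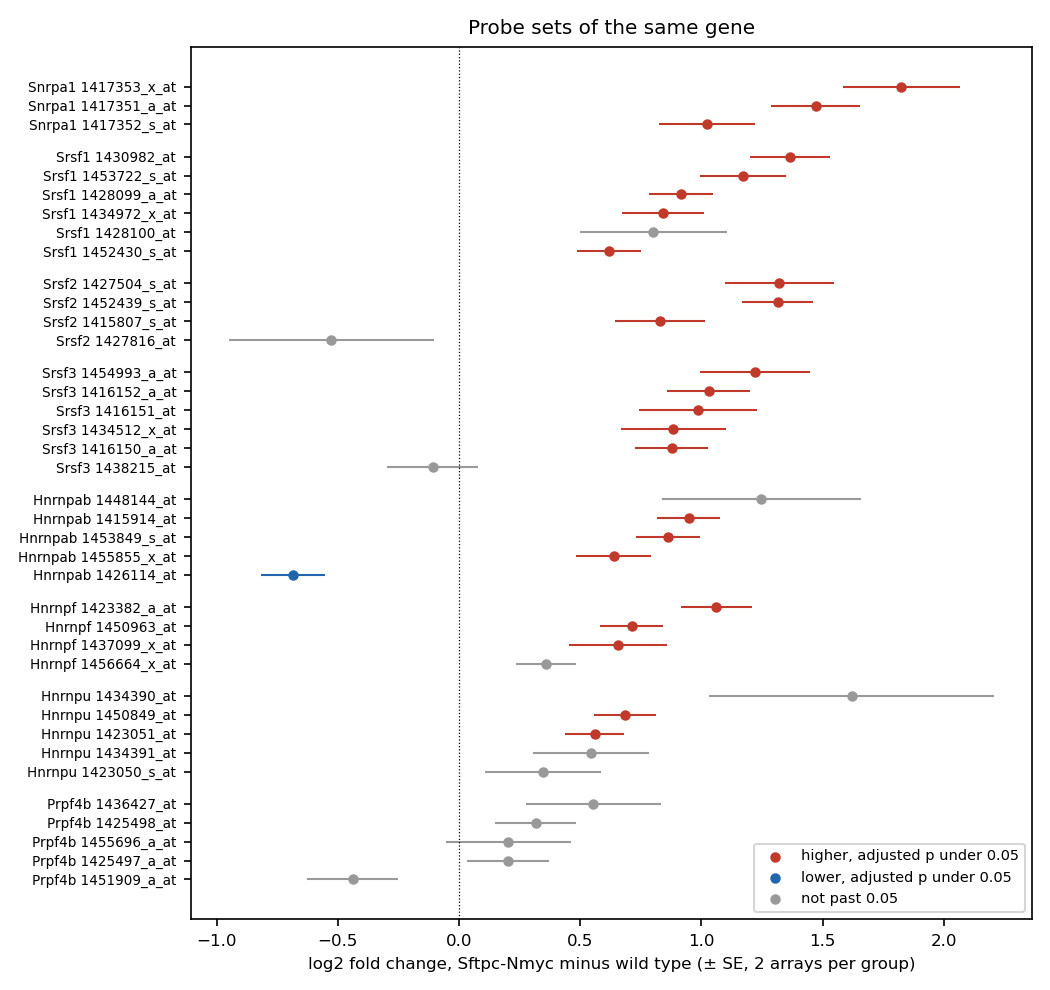
Log2 fold change ± SE (Sftpc-Nmyc minus wild type, n = 2 arrays per group) of every tested probe set of 8 genes. The Snrpa1 probe sets lie between 1.02 and 1.82, the last of these against wild-type readings under the Bacillus maximum, those of Hnrnpab lie between -0.68 and 1.25 on both sides of 0, and no Prpf4b probe set passed.

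The 13 members that were too dim to test read at most 36 on any array. They include 1 probe set each of Sf3b5, Prpf31 and Snrpd3, genes whose other probe sets were tested. The single probe sets of Snrpn and Lsm14a are also among them, so that 62 of the 64 genes were tested by at least 1 probe set. Replicates of the tested members differed by a median of 0.18 on the log2 scale in each group. The widest gaps were 1.33 between the Sftpc-Nmyc arrays, for Hnrnpab 1448144_at, and 1.96 between the wild-type arrays, for Hnrnpu 1434390_at, and neither of these probe sets was called.

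Genes of the splicing pathway outside the name rule, listed with earlier results known, were also called higher more often than lower. Of 90 tested, 40 were higher (44.4%, against 14.7% of all genes) and 0 lower by limma's adjusted p. At limma's unadjusted p under 0.05 there were 52 higher and 4 lower, against 1786 and 1878 of all 8675 genes. The median log2 fold change was 0.46, against -0.02 over all genes. In snRNP assembly, where the SMN complex loads Sm proteins after their methylation by PRMT5, 6 of 10 were called higher. Coil, the scaffold of Cajal bodies where snRNPs mature, read 193.7 and 228.1 in Sftpc-Nmyc lungs, against 83.4 and 82.9 in wild-type lungs (1.31 ± 0.17, limma adjusted p = 0.0016). Wdr77, the partner of PRMT5, read 432.7 and 441.7 in Sftpc-Nmyc lungs, against 81.7 and 163.8 in wild-type lungs (1.88 ± 0.30, limma adjusted p = 0.0031). Clns1a, which holds Sm proteins for methylation, stood at 0.83 ± 0.13 (limma adjusted p = 0.0030). Named after their values were seen, Smn1 stood at 0.99 and Prmt5 at 1.01, both called, the second lost without wild type replicate 2 (limma adjusted p = 0.051). Gemin7 went the other way without passing, at -0.36.

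Other snRNP proteins were called higher in 6 of 12 (50%, against 14.7% of all genes tested). They were led by Snrnp40 of the U5 snRNP at 311.8 and 347.5 in Sftpc-Nmyc lungs, against 143.7 and 115 in wild-type lungs (1.33 ± 0.17, limma adjusted p = 0.0015). Eftud2, the U5 GTPase, stood at 1.08 ± 0.17 and Usp39, a tri-snRNP factor, at 1.01 ± 0.15, while Snrnp27 stood at -0.02. Of the genes that read the 3′ splice site and branch point, 4 of 8 were called. Among them were Rbm17 (0.95), U2af2 (0.69), which reads the polypyrimidine tract, and its partner U2af1 (0.48). Both U2AF subunits lost their call without Sftpc-Nmyc replicate 2 (limma adjusted p = 0.077 for U2af2 and 0.12 for U2af1) and without wild type replicate 2 (0.096 and 0.093), and U2af1 also without wild type replicate 1 (0.11). Cherp (-0.18) and U2af1l4 (-0.04) went against the list without passing.

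Exon junction and cap-binding genes, which mark spliced mRNA and lead it to export, were called higher in 7 of 9 (77.8%, against 14.7% of all genes tested). Alyref, an export adaptor, read 512.8 and 598 in Sftpc-Nmyc lungs, against 185.1 and 194.1 in wild-type lungs (1.52 ± 0.15, limma adjusted p = 0.00065). Ddx39a, an export helicase, stood at 1.16 ± 0.17 and Ncbp2, the small cap-binding subunit, at 0.96 ± 0.15. In the Prp19 complex and catalytic steps 4 of 15 were called higher (26.7%, against 14.7% of all genes tested). Among them were Bcas2 (1.04), Plrg1 (0.79, lost without wild type replicate 2) and Dhx15 (0.78). Bcas2 read 62.7 and 74.2 in wild-type lungs, the first under the Bacillus maximum of 73.4. The size of its change is therefore uncertain. Slu7 (-0.38) and Syf2 (-0.25) were on the other side without passing.

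SR kinases and coactivators were called higher in 3 of 11 (27.3%, against 14.7% of all genes tested). Tra2a (0.75) lost its call without Sftpc-Nmyc replicate 2 (limma adjusted p = 0.051) or wild type replicate 2 (0.063), Tra2b (0.64) without wild type replicate 1 (0.064), and Srpk1 (0.53), a kinase of SR proteins, whichever array was left out (0.081 to 0.14). Srrm2 (-0.55) and Clk1 (-0.39) went against the list without passing. Other regulators were called higher in 10 of 25 (40%). Esrp1, an epithelial splicing factor, read 327.7 and 312.9 in Sftpc-Nmyc lungs, against 106.8 and 140.4 in wild-type lungs (1.36 ± 0.18, limma adjusted p = 0.0017). Of the 11 markers of lung epithelium Epcam (1.48) and Cdh1 (0.99) were also higher, while 8 were lower, among them Aqp5 (-4.35), Sftpb (-2.85) and Ager (-1.59), and the list's median was -1.58. Their part in Esrp1 was not tested. Ewsr1 stood at 1.04 ± 0.15 and Syncrip at 0.88 ± 0.16, whereas Celf2 (-0.39) and Rbfox2 (-0.24) did not pass. With the mean of all probe sets in place of the brightest, Ewsr1 (0.47, limma adjusted p = 0.064) and Syncrip (0.50, 0.058) did not pass.

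**Figure D4:**
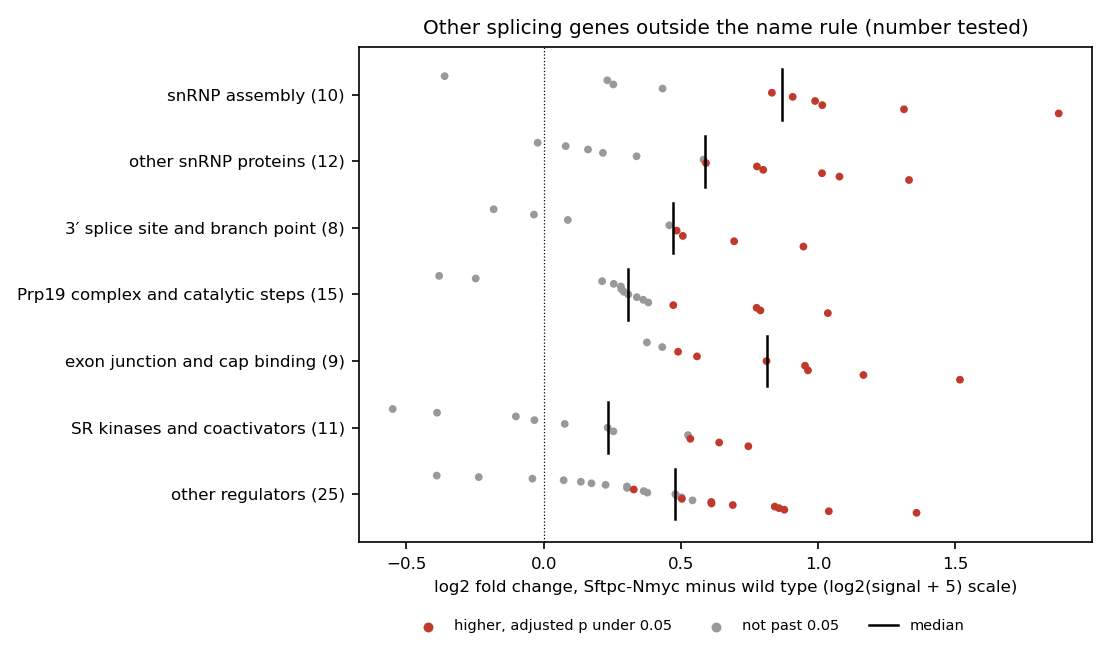
Log2 fold change (Sftpc-Nmyc minus wild type) of each tested splicing gene outside the name rule, by function, with 1 probe set per gene. Red points passed an adjusted p of 0.05, grey points did not and the bar is the median, which runs from 0.23 for the SR kinases and coactivators to 0.87 for snRNP assembly (n = 2 arrays per group).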

How the data were processed

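Per the labels' protocols, RNeasy-purified total RNA of whole lung was biotin-labelled and hybridised to Affymetrix arrays. For each of 22690 probe sets the authors deposited 1 signal intensity on a linear scale. No source used here names the software or how background and scaling were handled. The arrays share a mean of 150.05 once the top and bottom 2% are left out, so the authors' deposited intensity values appear scaled to a common level. Detection calls were not used here.

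Symbols came from the platform annotation, and all 148 members matched RefSeq by gene identifier. Of the probe sets, 20380 had 1 symbol, 691 several and 1555 none, and 64 were controls. Values under 1 were set to 1, 5 was added, log2 was taken and arrays were quantile normalized over non-control probe sets. Probe sets with a mean below the 30th percentile were left out. Linear models with group as the only term were fitted to 14266 probe sets, and to the brightest probe set of 8675 genes, by lmFit and trended eBayes of limma 3.58.1 (R 4.3.3), and Benjamini-Hochberg adjusted p-values run over each whole fit with a threshold of 0.05. The code was tested on simulated data. Members and gene lists were chosen with earlier results of these data known, and in each list the text names the genes with the largest statistics and those against the list, or all of a short list. Per the design text duplicates are biological replicates. The alternatives tried were the normalization, the added constant, the filter, the variance model, the replicate number as a block, the mean of a gene's probe sets and leaving out each array. Same-numbered arrays did not deviate together (r = -0.04 across tested probe sets), so the numbers are not taken as pairs.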

Additional observations from a re-analysis of the deposited data

How the results depend on the processing

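Member probe sets called numbered 59 and lay between 43 and 67 under the 8 alternatives that keep all arrays, including 55 without quantile normalization, 67 with median centring, 45 with no filter on dim probe sets and 43 with eBayes without a trend. Leaving out 1 array gave 31 to 43 member probe sets, 15 to 23 member genes (29 with all arrays), 22 to 35 pathway genes (40 with all arrays), 2025 to 2685 of all probe sets (3768 with all arrays) and 1379 to 1906 of all genes (2636 with all arrays), in fits that take a lone array to vary like the other group. Without Sftpc-Nmyc replicate 1 the brightest probe set of Hnrnpab was the falling one, so that 1 member gene was called lower. With the replicate number as a block, where the samples share only a number, 51 member probe sets, 25 member genes and 35 pathway genes were called, and 3179 of all probe sets. No scaling moved the median of all probe sets by over 0.1, and no named probe set or pathway gene reversed a call. Wild-type signals under the Bacillus maximum on both arrays limit the called Snrpa1 1417353_x_at, Lsm1 and Prpf39. On 1 array they limit Prpf31, Sf3a3 1432488_a_at, Srsf3 1416151_at and, among the named pathway genes, Bcas2.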
